A study of Mus musculus with 30 samples.

Results

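The genes described here are the chemokine ligands and receptors of mammary tumors from MMTV-PyMT mice. They were chosen by name alone, as every gene of the count table with a symbol of the form Ccl, Cxcl, Xcl, Cx3cl, Ccr, Cxcr, Xcr or Cx3cr followed by a number. This gave 57 of the 21841 genes, 39 ligands and 18 receptors. Of these, 35 (24 ligands and 11 receptors) had 10 or more counts in 5 or more of the 30 libraries and are called the reported genes, and 32 (24 ligands and 8 receptors) were abundant enough to be tested.

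RNA sequencing was performed on 1 tumor from each of 30 WT mice, FVB/N-Tg(MMTV-PyVT)634Mul/J by strain, in which the MMTV promoter drives the polyoma middle T oncogene in mammary epithelium. All mice, controls included, carried this transgene. The 6 groups of 5 mice received vehicle, 5-fluorouracil (5-FU) at 40 mg/kg every 4 days, gemcitabine at 64 mg/kg every 7 days, KCL-HO-1i at 25 µmol/kg daily, or KCL-HO-1i at that dose together with either chemotherapy (KCL-HO-1i/5-FU and, with gemcitabine, KCL-HO-1i/Gemcitabine), all given i.p. for 72 hours per the labels. In the study's own text the time is shorter and the gemcitabine dose lower, and no age is given in the labels. KCL-HO-1i inhibits heme oxygenase-1, an enzyme that breaks down heme, and 5-FU and gemcitabine are drugs that stop DNA synthesis in dividing cells. Whole tumor tissue was used, so that fewer cells of a type and less RNA per cell cannot be told apart.

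Chemokines are small secreted proteins that guide migrating leukocytes. Each binds to 1 or more membrane receptors that signal through Gi proteins, and cells move towards the higher concentration. In mammary tumors, ligands made by tumor cells, fibroblasts, endothelium and macrophages draw in monocytes through CCR2, T cells and natural killer cells through CXCR3, neutrophils through CXCR2 and dendritic cells through XCR1 and CCR7. CX3CR1 and CCR1 are carried by monocytes and macrophages, and CXCL12, CXCL14 and CCL21 are ligands made largely by stromal or lymphatic endothelial cells.

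Averaged over tumors without and with chemotherapy, most chemokine genes had higher mean levels with KCL-HO-1i than without it, the myeloid receptors Ccr1 and Cx3cr1 and the ligands Cxcl14 and Ccl6 among them. Of the 32 tested genes, 31 had an average log2 fold change above 0, beside 49.8% of all genes, that of Ccr1 being 0.76, of Cx3cr1 0.78 and of Cxcl14 1.16. No gene passed the test adjusted over all genes, where Ccr1 and Cx3cr1 came to 0.0558. The median of the average fell from 0.68 to 0.32 on the log2 scale without the 2 libraries poorest in epithelial markers. For KCL-HO-1i/5-FU against 5-FU the median turned from 0.29 to -0.15, with 14 of 34 genes above 0 in place of 22 of 32. These 2 libraries share a mouse code number held only by tumors with KCL-HO-1i. Several macrophage and fibroblast markers were higher against vehicle in the groups with KCL-HO-1i, and fewer were against the matching chemotherapy. For several ligands, Cxcl12 and Cxcl5 among them, 1 tumor of a group stood far above the rest.

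Together the 57 genes held between 0.0142% and 0.0828% of the counts of a library, and library totals ran from 10067577 to 13622264 counts. Levels are given as CPM, counts scaled to an equal effective library size, which do not allow for gene length, so levels of different genes are not compared. A count of 3 reads corresponded to between 0.215 and 0.302 CPM, and values below that range rest on fewer than 3 reads. Sequenced copies are not independent molecules, so this limit covers counting error only.

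Most of the genes lie in a few clusters of the genome. In the RefSeq annotation of GRCm38.p6, the build the labels call mm10, 12 of the ligands were on chromosome 11 and 10 of these were reported, among them Ccl6 (chr11:83587886-83593087) and Ccl3 (chr11:83647843-83649378). Chromosome 5 carried 11 ligands, of which 4 were reported. Of the 11 receptors on chromosome 9, 7 were reported, among them Ccr1 (chr9:123962126-123968692) and Cx3cr1 (chr9:120048683-120068296).

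The 22 genes that fell short of 10 counts in 5 libraries are named with their highest count in any library. For the ligands it was 2 for Ccl1, 46 for Ccl17, 56 for Ccl19, 21 for Ccl20, 11 for Ccl4, 24 for Cxcl10, 5 for Cxcl11, 27 for Cxcl13, 24 for Cxcl15, 19 for Cxcl2 and 4 for Cxcl3. For the receptors it was 24 for Ccr10, 13 for Ccr3, 3 for Ccr4, 17 for Ccr6, 4 for Ccr8, 10 for Ccr9 and 2 for Cxcr1. Ccl21b, Ccl21c, Ccl26 and Ccl27b had 0 reads in all 30 libraries, which allows up to 3 reads in each. Ccl21a, Ccl21b and Ccl21c are nearly identical copies, and so are Ccl27a and Ccl27b, so how reads were shared among them is uncertain. Ligands that interferon-gamma induces for CXCR3, namely Cxcl10 and Cxcl11, were thus scarce in these tumors, and of that family only Cxcl9 was reported.

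Libraries differed in tissue markers, and 2 that stood apart in them held the highest levels of many of the genes described here. The part of tissue content in these levels was not tested. Luminal epithelial markers (Krt8, Krt18, Krt19, Epcam, Elf5 and Cldn7) were present in every library, with a summed level of 4014 to 5209 CPM in vehicle tumors. It was lowest in KCL-HO-1i/5-FU replicate 3 (2130 CPM) and KCL-HO-1i/Gemcitabine replicate 2 (2326 CPM), which also had the highest summed fibroblast markers (Col1a1, Col1a2, Col3a1, Pdgfra, Dcn and Lum), at 4484 and 11990 CPM. These 2 libraries held the highest level of 10 and of 8 of the 35 reported genes, against 0 to 3 in each of the other 28 libraries, and no vehicle library held the highest level of any. Their mice have the same code number in the labels, shared only with KCL-HO-1i replicates 2 and 3. Tumors with and without KCL-HO-1i thus cannot be compared within this number. The chemokine genes' share of counts was highest in KCL-HO-1i/5-FU replicate 3 (0.0828%), KCL-HO-1i replicate 3 (0.0728%) and KCL-HO-1i/Gemcitabine replicate 2 (0.0713%). In KCL-HO-1i replicate 2 it was 0.0475%. Adipocyte or skeletal muscle markers summed to over 1000 CPM in 5 libraries, which were Gemcitabine replicate 5, KCL-HO-1i replicates 3 and 4 and KCL-HO-1i/Gemcitabine replicates 1 and 2, against at most 187 CPM of either list in vehicle tumors. The counts of genes past the study limits, a log2 fold change past 0.6 and an unadjusted p under 0.05, are therefore also given without the first 2 and without these 5 libraries, 2 alternatives chosen after the data were seen.

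**Figure D1:**
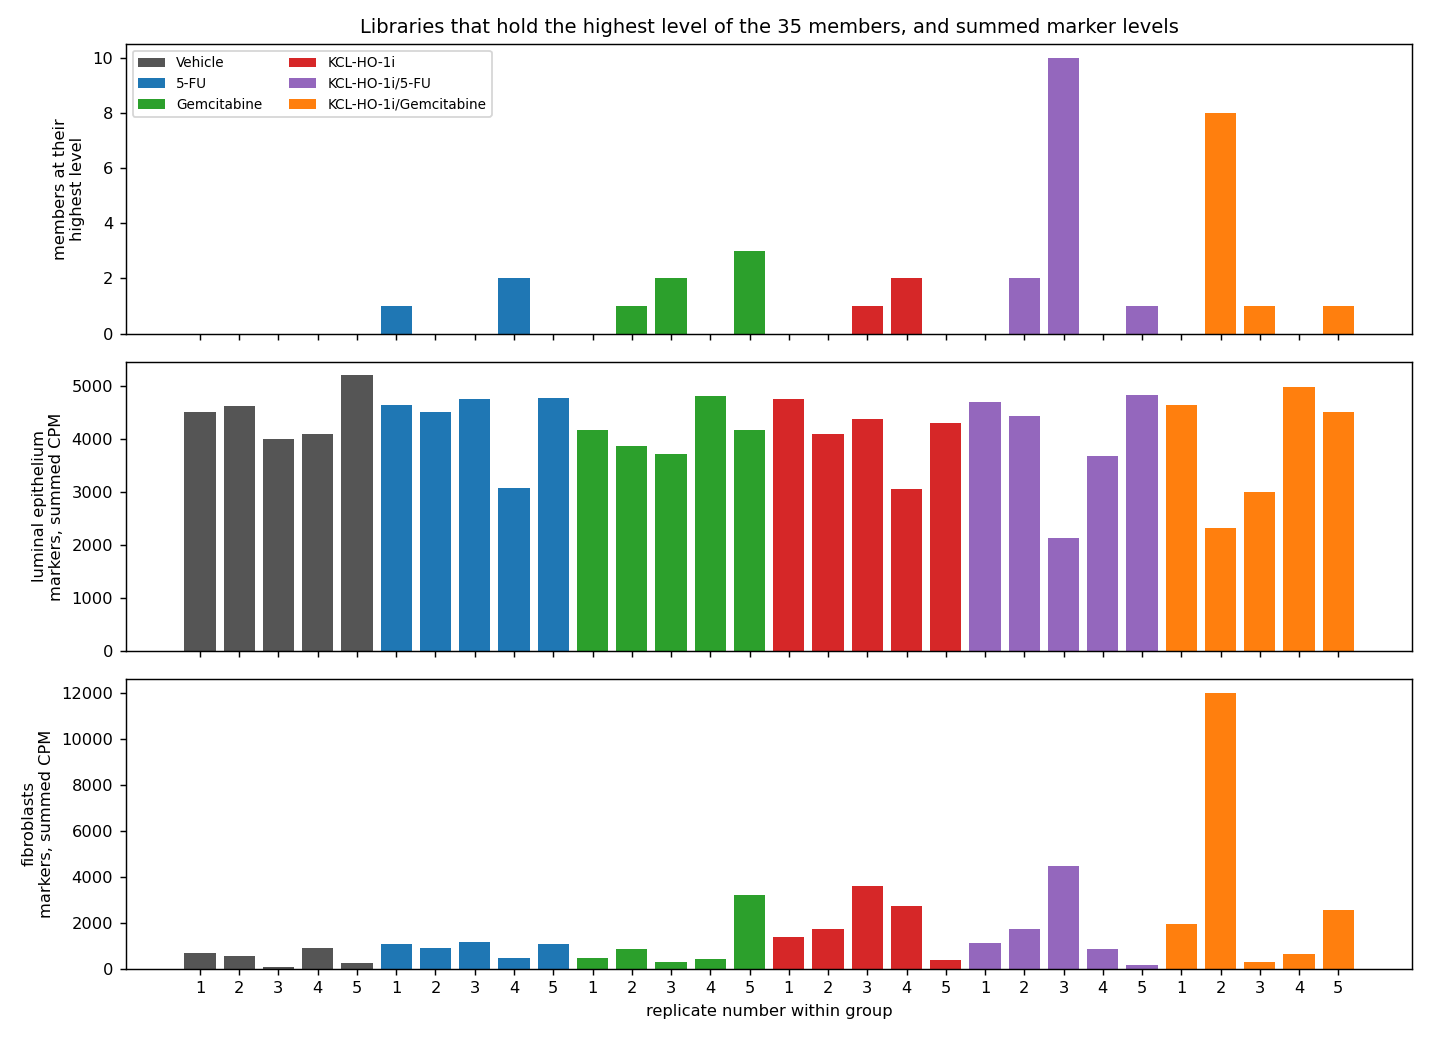
Number of the 35 reported genes that reach their highest level in each library (top), and the summed level in CPM of luminal epithelial (middle) and fibroblast markers (bottom), with 1 bar for each of the 30 libraries and colors for the 6 groups. KCL-HO-1i/5-FU replicate 3 and KCL-HO-1i/Gemcitabine replicate 2 hold the highest level of 10 and 8 genes and have the lowest luminal sums, 2130 and 2326 CPM.

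Macrophage markers were higher against vehicle in the groups with KCL-HO-1i. Of 6, 5 passed the study limits in KCL-HO-1i (beside 6.59% of all genes), 5 and 6 in its combinations with 5-FU and gemcitabine (7.49% and 10.2%) and 6 in the average (9.24%), and none passed the adjusted test. In the same order these counts were 4, 3, 5 and 4 without the 2 least luminal libraries and 0, 6, 5 and 5 without the 5 rich in fat or muscle markers. Against the matching chemotherapy 0 of 6 passed with 5-FU (beside 3.26% of all genes) and 4 with gemcitabine (beside 5.31%). These were 0 and 3 without the 2 least luminal libraries (beside 1.61% and 2.88%). Without the 5 rich in fat or muscle markers they were 0 and 5 (beside 3.51% and 4.34%). The sum of Cd68, Csf1r, Adgre1, Mrc1, C1qa and C1qb was 61.1 to 242.6 CPM in vehicle, 225 to 519 in KCL-HO-1i, 243.3 to 634 in KCL-HO-1i/5-FU and 304 to 564 in KCL-HO-1i/Gemcitabine, so that every tumor of both combinations was above every vehicle tumor. With 5-FU or gemcitabine alone it was 142 to 386 and 103 to 492 CPM. Fibroblast markers summed to 90.1 to 885 CPM in vehicle and to 368 to 3611, 166 to 4484 and 306 to 11990 CPM in the 3 groups with KCL-HO-1i, in the same order. Of 6, 3, 3 and 6 passed the study limits against vehicle, 6 in the average, and 1 for each combination against its chemotherapy. Without the 2 least luminal libraries these were 6, 0, 4, 3, 0 and 0. Without the 5 rich in fat or muscle markers they were 1, 6, 1, 4, 1 and 0. Shares of all genes are those given above and below for each comparison and fit. None of 5 T cell markers tested (Cd3e, Cd3d, Cd3g, Cd4 and Cd8a) passed the study limits in any comparison with all libraries, and their sum was 0.704 to 6.78 CPM in vehicle. It was 3.93 to 9.71 CPM with 5-FU, 2.59 to 17.2 with gemcitabine and 2.19 to 8.87 with KCL-HO-1i. With KCL-HO-1i/5-FU it was 3.21 to 13.1 CPM and with KCL-HO-1i/Gemcitabine 3.64 to 8.97. Their median log2 fold changes against vehicle were 1.04, 0.87, 0.56, 0.60 and 0.75 in that order. At such low levels a missing call says little.

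Each treatment was compared with vehicle, each combination with its chemotherapy, and the effect of adding KCL-HO-1i to vehicle, to 5-FU or to gemcitabine was averaged, which sets 15 tumors with it against 15 without it in 3 backgrounds. Comparisons with vehicle share the vehicle tumors and are not independent. By the edgeR quasi-likelihood test with Benjamini-Hochberg adjusted p over all 13663 genes tested, no chemokine gene passed 0.05 in any comparison. The share of all genes that did was 0% in each comparison of groups and in both interaction tests, 0.0586% (8 genes) for the KCL-HO-1i average and 0.651% (89 genes) for any difference among the 6 groups. With DESeq2 as an alternative test, 1 chemokine gene passed for KCL-HO-1i (Ccl6, beside 0.875% of all genes), 3 in its combination with 5-FU (beside 3%), 4 in that with gemcitabine (beside 6.49%) and 5 for the average (Ccl6, Ccr1, Cx3cr1, Cxcl14 and Cxcl5, beside 8.38%). For any difference among the groups 2 passed with DESeq2 (Cx3cr1 and Cxcl5), beside 7.01% of all genes. With limma-voom 3 passed for KCL-HO-1i/Gemcitabine (Ccr1, Cx3cr1 and Cxcl14), beside 9.59% of all genes, and 1, Cx3cr1, for the average, beside 1.93%. In the remaining comparisons both tools called 0 of the 32. At an unadjusted edgeR p under 0.05 the counts of the 32 were 3 for 5-FU (beside 3.89% of all genes), 1 for gemcitabine (3.83%), and 11, 11 and 15 for KCL-HO-1i alone, with 5-FU and with gemcitabine (9.43%, 17.6% and 19.8%). They were 12 for the average (beside 23%), 4 and 3 for the combinations against 5-FU and against gemcitabine (11.4% and 13.5%), and 6 for any difference (18.7%).

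The study limits given above formed a second rule. They were applied here to edgeR p-values from 1 fit of all 6 groups, whereas the study used DESeq2. A gene can therefore pass in the study and not here. After 5-FU 3 of the 32 genes were higher by this rule (Ccl21a, Ccl24 and Cx3cr1), beside 1.19% of all genes, and 0 lower, beside 0.468%. After gemcitabine 1 was higher, Ccl21a, beside 0.71% of all genes, and 0 lower, beside 0.505%. Ccl21a had 0 reads in every vehicle tumor and passed the count filter only through treated tumors. It could therefore only come out higher against vehicle, and its place in each count against vehicle is no support. Here and below, counts by this rule with 1 library left out stand without the share of all genes in the same fit. They show how far a count moves, not whether it exceeds that share. Leaving out vehicle replicate 3 or 5 left 1 gene for 5-FU. Leaving out vehicle replicate 1 gave 6 for gemcitabine, and gemcitabine replicate 1, 4 or 2 gave 4, 3 and 2. The counts for 5-FU and gemcitabine were 5 and 3 of 34 genes without the 2 least luminal libraries, beside 1.69% and 1.11% of all genes. They were 3 and 1 of 36 without the 5 rich in fat or muscle markers, beside 1.69% and 0.906%, and there Ccl28 was lower after gemcitabine, beside 0.623%. The median log2 fold change of the 32 genes was 0.77 for 5-FU and 0.50 for gemcitabine, against 0.0011 and 0.030 for all genes.

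After KCL-HO-1i 11 of 32 were higher, beside 6.59% of all genes, and 0 lower, beside 0.329%. They were the monocyte and macrophage chemoattractants Ccl6, Ccl8 and Ccl9, the eotaxins Ccl11 and Ccl24, Ccl21a, Cxcl12, Cxcl14 and the receptors Ccr1, Ccr2 and Cx3cr1. The median of the 32 was 1.09, or 1.06 with Ccl21a set to its lower bound, against -0.011 for all genes, and 29 of 32 were above 0, against 47.9% of all genes. Without the 2 least luminal libraries, neither of which is in this comparison, 13 of 34 genes were higher, beside 7.75% of all genes. Without the 5 libraries rich in fat or muscle markers, 2 of them in this group, only Ccl21a was higher of 36 genes, beside 0.978% of all genes. Without reads in vehicle, Ccl21a could only come out higher. The count was 5 without vehicle replicate 5, and 6 without vehicle replicate 3 or KCL-HO-1i replicate 3.

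With KCL-HO-1i/5-FU 10 were higher, beside 7.49% of all genes, and 1, Ccl28, was lower, beside 2.77%. With KCL-HO-1i/Gemcitabine 14 were higher, beside 10.2%, and again Ccl28 lower, beside 1.62%. The genes higher in the former were Ccl12, Ccl21a, Ccr1, Cx3cl1, Cx3cr1, Cxcl1, Cxcl12, Cxcl14, Cxcl5 and Xcr1, and in the latter Ccl11, Ccl21a, Ccl24, Ccl5, Ccl6, Ccl8, Ccl9, Ccr1, Ccr2, Cx3cr1, Cxcl12, Cxcl14, Cxcl5 and Xcr1. Medians were 0.98 and 1.13, against 0.0094 and 0.019 for all genes. Both counts rested in part on the 2 least luminal libraries. When KCL-HO-1i/5-FU replicate 3 was left out the first count was 3, the second was 6 when KCL-HO-1i/Gemcitabine replicate 2 was left out, and without both libraries the counts were 5 and 6 of 34 genes, beside 3.12% and 5.68% of all genes. Without the 5 libraries rich in fat or muscle markers they were 12 and 6 of 36 genes, beside 8.5% and 4.98%.

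Averaged over the 3 backgrounds, 10 genes were higher with KCL-HO-1i, beside 9.24% of all genes, and 1 lower (Ccl28), beside 0.571%. The 10 were Ccl11, Ccl12, Ccl6, Ccl8, Ccl9, Ccr1, Cx3cr1, Cxcl12, Cxcl14 and Cxcl5. The count was 5 of 34 without the 2 least luminal libraries (Ccl6, Ccr1, Cx3cr1, Cxcl14 and Cxcl5), beside 3.85% of all genes, 5 without KCL-HO-1i/Gemcitabine replicate 2 alone, and 6 of 36 without the 5 libraries rich in fat or muscle markers, beside 4.97%. Between 1 and 6 of these genes passed the adjusted threshold when any 1 of 7 libraries was left out. It was 6 without Gemcitabine replicate 5 (Ccl6, Ccl8, Ccr1, Cx3cr1, Cxcl14 and Cxcl5), when 1130 genes in all passed. It was 4 without KCL-HO-1i replicate 5 or KCL-HO-1i/5-FU replicate 4, 3 without KCL-HO-1i/5-FU replicate 5 or KCL-HO-1i/Gemcitabine replicate 4, and 1 without 5-FU replicate 5 or KCL-HO-1i replicate 1. In the order just given 478, 840, 514, 465, 573 and 467 genes in all passed, against 8 with all libraries.

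Against the matching chemotherapy, KCL-HO-1i/5-FU had 3 genes higher (Cx3cl1, Cxcl1 and Cxcl5), beside 3.26% of all genes, and Ccl28 lower, beside 1.79%. Without KCL-HO-1i/5-FU replicate 3 none was higher. KCL-HO-1i/Gemcitabine against gemcitabine had 3 higher (Ccr1, Cx3cr1 and Xcl1), beside 5.31%, and 0 lower, beside 1.09%. This count was 9 without Gemcitabine replicate 5 and 1 without Gemcitabine replicate 2 or 3, with no share of all genes from these fits. For the combinations with 5-FU and gemcitabine these counts were 0 and 2 without the 2 least luminal libraries (beside 1.61% and 2.88% of all genes) and 4 and 2 without the 5 rich in fat or muscle markers (beside 3.51% and 4.34%). In the tests of whether the KCL-HO-1i difference itself depended on the chemotherapy, the lowest adjusted p of a chemokine gene was 0.508 for 5-FU, with 3 genes at an unadjusted p under 0.05 beside 8.53% of all genes, and 1 for gemcitabine, with 0 genes beside 1.34%. The difference was smaller in the presence of 5-FU for Ccl6, with a log2 interaction of -2.49 (SE 1.08, adjusted p = 0.52), and for Ccl24, with -4.57 (SE 1.89, adjusted p = 0.508).

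**Figure D2:**
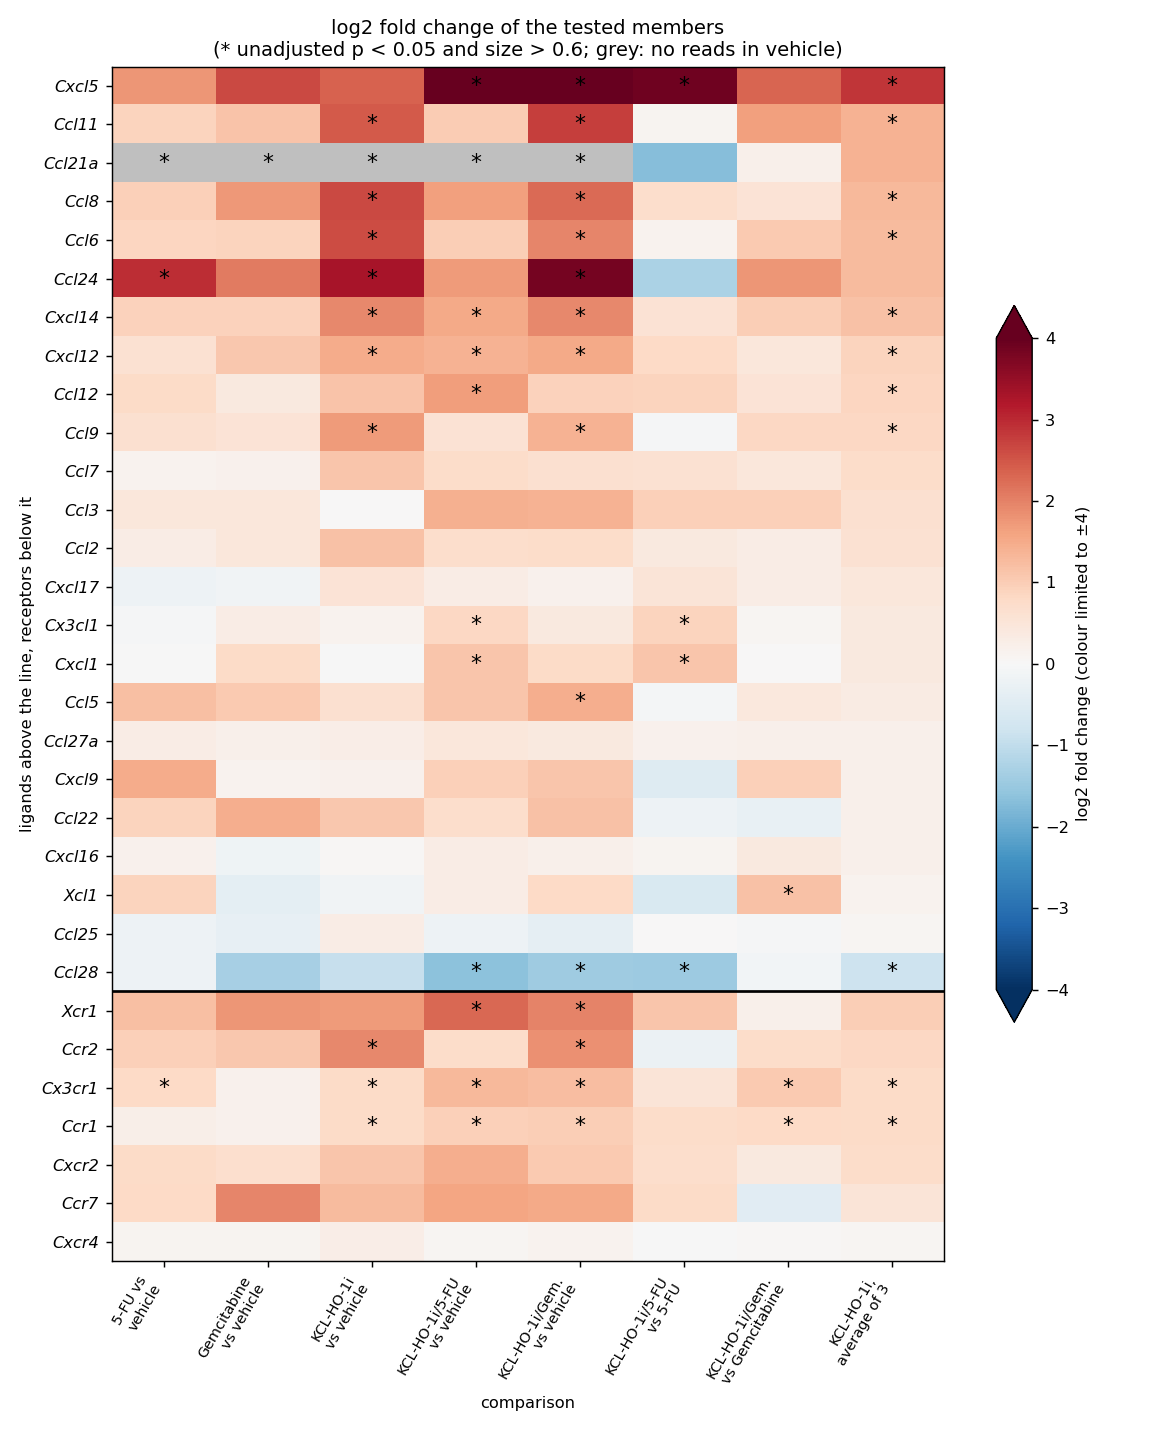
Log2 fold changes of 31 of the 32 tested genes (rows) in 8 comparisons (columns), from red for higher to blue for lower with colors limited at ±4. Asterisks mark the study limits, which 3, 1, 11, 10 and 14 genes passed as higher against vehicle from left to right, and gray cells mark Ccl21a, which had 0 reads in vehicle tumors. Each of these counts includes Ccl21a, which could only be higher there.

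Promoters of leading genes were read from RefSeq (GRCm38.p6) to show which sequence stands before genes that were higher together. An entry existed for 24 of the 35 reported genes, each covering 250 bases before to 50 bases after the start. The 4 shown are those with an entry among the genes that kept the study limits in the KCL-HO-1i average without either set of libraries. All 4 are on the minus strand and are written 5′ to 3′ along the gene, with capitals for a match to any of the 7 motifs described next. They lie at chr9:123968643-123968942 (Ccr1), chr9:120068247-120068546 (Cx3cr1), chr13:56296502-56296801 (Cxcl14) and chr11:83593038-83593337 (Ccl6).
Ccr1: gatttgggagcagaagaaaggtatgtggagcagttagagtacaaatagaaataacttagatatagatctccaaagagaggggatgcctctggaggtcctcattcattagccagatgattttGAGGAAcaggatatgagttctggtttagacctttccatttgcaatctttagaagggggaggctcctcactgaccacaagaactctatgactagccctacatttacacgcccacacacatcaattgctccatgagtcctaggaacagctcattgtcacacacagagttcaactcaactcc
Cx3cr1: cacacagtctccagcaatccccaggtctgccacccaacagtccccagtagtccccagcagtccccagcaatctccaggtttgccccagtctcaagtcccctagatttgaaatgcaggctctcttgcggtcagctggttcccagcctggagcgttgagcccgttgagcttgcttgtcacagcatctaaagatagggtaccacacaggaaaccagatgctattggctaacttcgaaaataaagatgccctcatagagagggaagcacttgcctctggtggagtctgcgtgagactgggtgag
Cxcl14: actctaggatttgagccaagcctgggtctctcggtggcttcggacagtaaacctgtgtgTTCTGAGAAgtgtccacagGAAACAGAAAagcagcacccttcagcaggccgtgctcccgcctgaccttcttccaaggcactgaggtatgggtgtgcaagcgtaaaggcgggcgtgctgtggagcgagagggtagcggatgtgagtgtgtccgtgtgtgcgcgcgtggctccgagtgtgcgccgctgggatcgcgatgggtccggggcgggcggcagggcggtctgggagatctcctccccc
Ccl6: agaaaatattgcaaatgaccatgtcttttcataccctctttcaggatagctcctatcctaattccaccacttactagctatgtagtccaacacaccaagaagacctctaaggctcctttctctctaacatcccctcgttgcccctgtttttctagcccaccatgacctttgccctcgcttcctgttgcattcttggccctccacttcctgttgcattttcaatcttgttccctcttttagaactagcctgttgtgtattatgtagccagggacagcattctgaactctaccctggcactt

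The motifs were searched on both strands, and their shares are given among the 24 promoters and among all 27025 promoters of the same length. A core of PU.1, a factor of myeloid cells (GAGGAA), was found in 9 of 24 (37.5%) and in 28.3% of all, and among the 4 only in Ccr1, 129 bases before the start. The STAT motif TTCNNNGAA was in 1 of 24 (4.17%, against 8.42%) and the interferon response motif (GAAA, any 2 bases, GAAA) in 1 (4.17%, against 3.49%). Both were those of Cxcl14, 191 and 172 bases before the start, and they did not overlap. The AP-1 motif TGANTCA was in 3 (12.5%, against 7.92%), the kappaB motif (GGGA, any 2 bases, TTCC) in 1, Cxcl1 (4.17%, against 1.44%), and the TATA motif TATAAA in 7 (29.2%, against 14.2%). The antioxidant response motif TGACNNNGC, the form bound by NRF2, was in 0 of 24 and in 12.4% of all. The promoters of Cx3cr1 and Ccl6 held none of the 7. These are matches of letters in a short window and say nothing of binding.

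Ccr1, a receptor of monocytes, macrophages and neutrophils for CCL3, CCL5, CCL6 and CCL9, had the smallest p for the KCL-HO-1i average. In vehicle tumors its levels were 4.60, 8.21, 4.22, 8.82 and 3.94 CPM in replicates 1 to 5. They were 8.87, 10.6, 7.46, 1.79 and 6.37 CPM with 5-FU and 4.25, 6.26, 4.49, 6.60 and 12.3 CPM with gemcitabine. Of these 3 groups, 5-FU replicate 4 was lowest and Gemcitabine replicate 5 highest. With KCL-HO-1i Ccr1 was at 7.68, 9.17, 18.1, 9.35 and 6.43 CPM. The combinations gave 7.16, 13.4, 13.2, 11.5 and 12.9 CPM with 5-FU and 10.6, 11.3, 12.9, 8.37 and 15.8 CPM with gemcitabine. All 15 tumors with KCL-HO-1i were above the mean of the matching group without it, although the ranges of the groups overlapped. Means were 5.96 ± 2.36 CPM in vehicle and 10.1 ± 4.59, 11.6 ± 2.60 and 11.8 ± 2.78 in the 3 groups with KCL-HO-1i (SD, n = 5). The average log2 fold change was 0.76 (SE 0.21, adjusted p = 0.0558) and stayed between 0.65 and 0.85 when any 1 library was left out. With the mouse code of the labels as a covariate it was 1.85 (adjusted p = 0.332). It was 0.75 (adjusted p = 0.21) without the 2 least luminal libraries and 0.76 (adjusted p = 0.167) without the 5 rich in fat or muscle markers. Against gemcitabine alone it was 0.80 (SE 0.37, adjusted p = 0.35), and 2.39 (adjusted p = 0.458) with the mouse code. The interactions were -0.04 (SE 0.51) with 5-FU and 0.03 (SE 0.52) with gemcitabine. The summed macrophage markers above were likewise higher in these groups, and their part in the result was not tested.

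Cx3cr1, the receptor that monocytes and resident macrophages carry for fractalkine, followed a like course. Vehicle tumors had 24.0, 36.8, 6.07, 37.7 and 19.8 CPM, with replicate 3 far below the rest. Values were 38.0, 46.9, 57.2, 29.2 and 45.1 CPM with 5-FU and 11.8, 30.8, 17.3, 33.7 and 47.0 CPM with gemcitabine. With KCL-HO-1i they were 40.1, 52.8, 62.7, 25.1 and 31.3 CPM. With KCL-HO-1i/5-FU they were 45.5, 85.1, 74.6, 68.5 and 32.7 CPM and with KCL-HO-1i/Gemcitabine 50.4, 43.0, 56.9, 75.1 and 66.4 CPM. Every KCL-HO-1i/Gemcitabine tumor was above every vehicle tumor, while the other groups overlapped with vehicle. For KCL-HO-1i alone the log2 fold change was 0.77 (SE 0.38), with an unadjusted value barely under the limit. The means were 24.9 ± 13.1 CPM in vehicle, 43.3 ± 10.4 with 5-FU, 28.1 ± 13.9 with gemcitabine, and 42.4 ± 15.4, 61.3 ± 21.6 and 58.4 ± 12.7 in the groups with KCL-HO-1i (SD, n = 5). Against vehicle the log2 fold change was 0.80 (SE 0.38, adjusted p = 0.999) for 5-FU, 1.30 (SE 0.38, adjusted p = 0.119) for KCL-HO-1i/5-FU and 1.23 (SE 0.38, adjusted p = 0.0927) for KCL-HO-1i/Gemcitabine. KCL-HO-1i/Gemcitabine against gemcitabine gave 1.05 (SE 0.38, adjusted p = 0.289). The average was 0.78 (SE 0.22, adjusted p = 0.0558), with 14 of 15 tumors above the mean of their background, and it was 0.77 without the 2 least luminal libraries and 0.91 without the 5 rich in fat or muscle markers. Without vehicle replicate 3 it was 0.68.

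**Figure D3:**
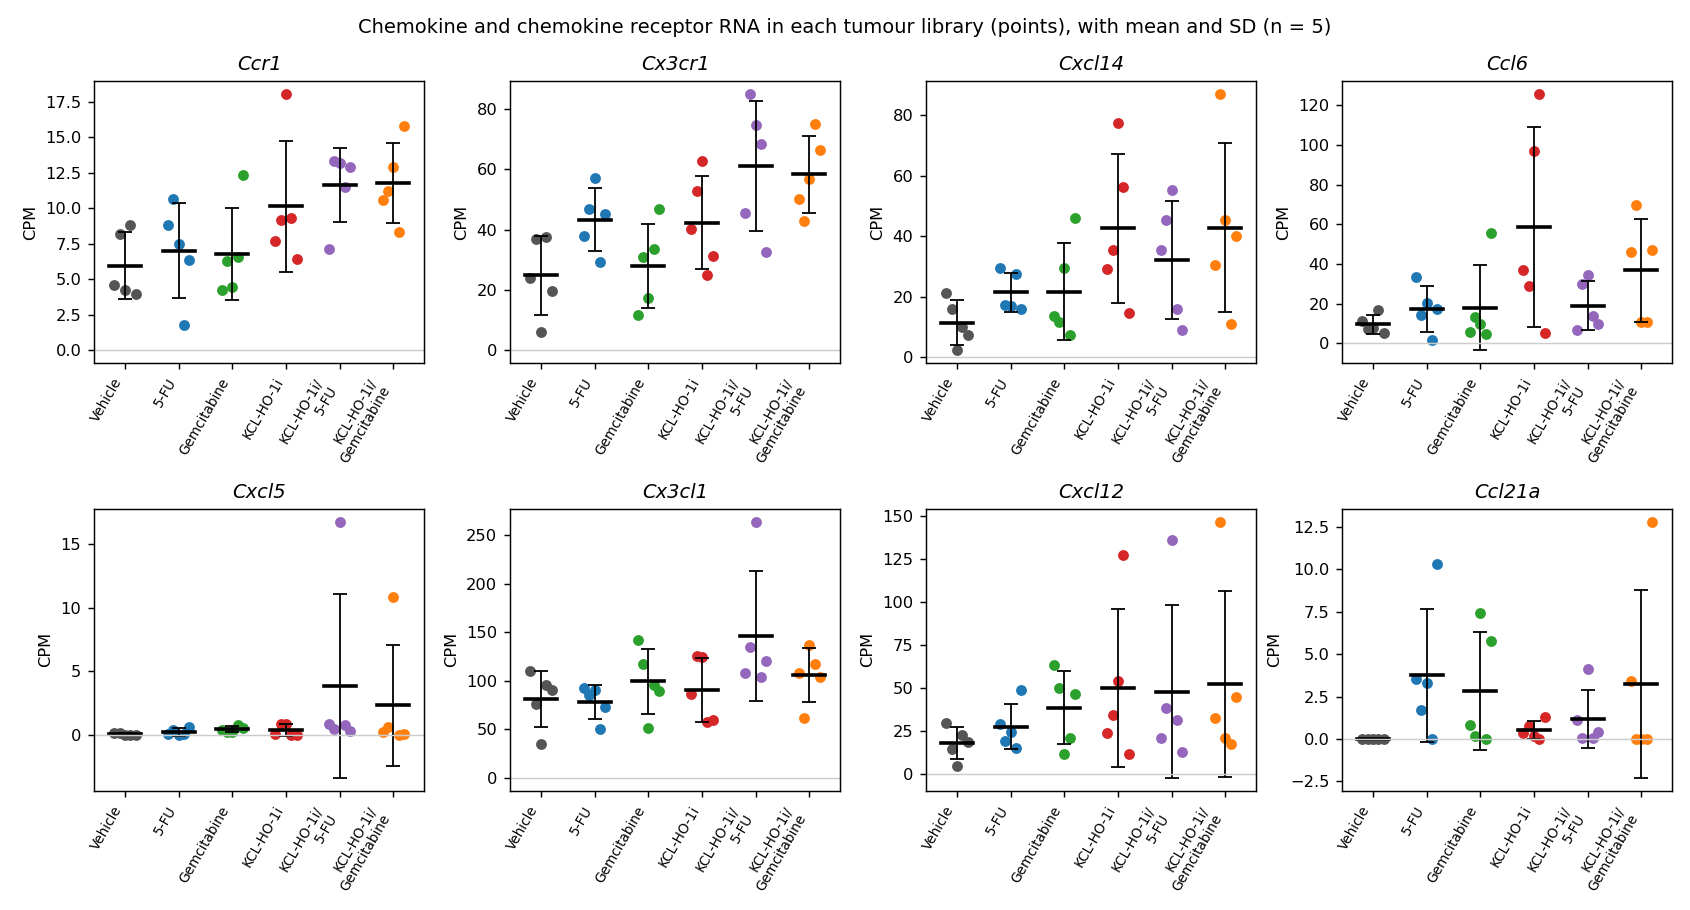
Levels in CPM of 8 genes in each of the 30 tumors by group, with points for tumors, horizontal lines for group means and bars for 1 SD (n = 5). Ccr1 and Cx3cr1 shift in most tumors with KCL-HO-1i, Cxcl5 and Cxcl12 have 1 tumor far above the rest in each combination, and Ccl21a is at 0 in all 5 vehicle tumors.

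Cx3cl1, the membrane-bound fractalkine of epithelium and endothelium and the main ligand of CX3CR1, stood apart by the 5-FU combination. It was at 110, 75.9, 35.3, 95.7 and 90.6 CPM in vehicle, 93.1, 85.7, 90.1, 50.9 and 72.8 CPM with 5-FU and 108, 135, 264, 104 and 120 CPM with KCL-HO-1i/5-FU. All 5 combination tumors were above all 5-FU tumors, and replicate 3 of the combination was the highest of all 30. Gemcitabine gave 143, 117, 51.7, 95.3 and 89.9 CPM, KCL-HO-1i 86.7, 125, 125, 57.6 and 59.3 CPM and KCL-HO-1i/Gemcitabine 108, 61.9, 137, 117 and 104 CPM, ranges that overlapped with vehicle. The log2 fold change was 0.90 (SE 0.31, adjusted p = 0.327) against 5-FU and 0.84 (SE 0.31, adjusted p = 0.175) against vehicle. Without replicate 3 these were 0.57 and 0.52. The average over backgrounds was 0.38 (SE 0.18, adjusted p = 0.202), below the fold limit.

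The 9 inflammatory CC ligands Ccl2 to Ccl9 and Ccl12 draw in monocytes and effector T cells, and 8 of them were tested. None passed the study limits after 5-FU or gemcitabine. After KCL-HO-1i 3 of 8 did, after KCL-HO-1i/5-FU 1 (Ccl12), after KCL-HO-1i/Gemcitabine 4 (Ccl5, Ccl6, Ccl8 and Ccl9) and in the average 4 (Ccl12, Ccl6, Ccl8 and Ccl9), all higher. Without the 2 least luminal libraries these 4 counts were 6, 0, 0 and 1, and without the 5 rich in fat or muscle markers 0, 1, 0 and 2. The shares of all genes are those given above for each comparison. The log2 fold changes of all 8 were above 0 in each of these comparisons, with medians of 0.71 for 5-FU, 0.50 for gemcitabine, 1.16, 1.05 and 1.39 for the 3 groups with KCL-HO-1i, and 0.78 for the average.

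Ccl6, a CCR1 ligand that mouse macrophages make, spread widely among tumors. In vehicle its levels were 11.3, 7.12, 7.48, 17.0 and 5.06 CPM and with KCL-HO-1i 36.8, 28.8, 97.1, 126 and 5.20 CPM. Of the latter, 4 were above every vehicle tumor and replicate 5 was within the vehicle range. 5-FU gave 33.6, 14.3, 20.3, 1.55 and 17.2 CPM and gemcitabine 5.47, 13.4, 9.80, 4.81 and 55.6 CPM. In the combinations it was 6.71, 29.8, 34.6, 13.9 and 9.94 CPM with 5-FU and 45.9, 69.9, 10.6, 10.5 and 46.8 CPM with gemcitabine. Both overlapped with vehicle and with their chemotherapy. The log2 fold change was 2.62 (SE 0.80, adjusted p = 0.337) for KCL-HO-1i and 1.26 (SE 0.44, adjusted p = 0.0961) for the average. The highest levels in KCL-HO-1i, in replicates 3 and 4, were in libraries rich in fat or muscle markers. Without the 5 such libraries the average was 0.94 (adjusted p = 0.257), and without the 2 least luminal ones 1.02 (adjusted p = 0.299). The test of any difference among the 6 groups gave an adjusted p of 0.211.

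Ccl9, a neighbor of Ccl6 on chromosome 11 that also acts on CCR1, showed the same spread with smaller differences. Vehicle tumors had 17.7, 7.92, 7.65, 16.4 and 7.96 CPM and KCL-HO-1i tumors 27.9, 26.2, 64.3, 60.8 and 8.83 CPM. Again 4 of 5 exceeded the vehicle range. The other groups had 32.6, 18.0, 21.4, 2.20 and 14.97 CPM with 5-FU, 6.04, 16.9, 11.1, 8.69 and 41.5 CPM with gemcitabine, 10.9, 19.2, 28.1, 13.6 and 14.3 CPM with KCL-HO-1i/5-FU and 32.6, 64.8, 8.26, 7.46 and 36.5 CPM with KCL-HO-1i/Gemcitabine. Its log2 fold change was 1.71 (SE 0.63, adjusted p = 0.387) for KCL-HO-1i and 0.83 (SE 0.36, adjusted p = 0.162) for the average, which was 0.58 (adjusted p = 0.437) without the 2 least luminal libraries and 0.50 (adjusted p = 0.478) without the 5 rich in fat or muscle markers.

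Ccl3, a ligand of CCR1 that activated macrophages and T cells release, is 1 of 5 ligands shown in the study for both combinations, with Ccl21a, Cxcl5, Cxcl12 and Cxcl14. Since these were picked from the same samples, their direction in the combinations is not independent evidence. Ccl3 was low, at 0.0940, 0.509, 0.264, 0.678 and 0.223 CPM in vehicle. It was at 0.302, 0.371, 2.55, 0.658 and 1.02 CPM with KCL-HO-1i/5-FU and 0.816, 1.11, 0.991, 0.904 and 0.984 CPM with KCL-HO-1i/Gemcitabine. The last 5 values were all above vehicle and close together, while in the 5-FU combination replicate 3 stood out. Single treatments gave 0.335, 0.243, 0.902, 0.326 and 0.667 CPM for 5-FU, 0.490, 0.167, 0.0916, 0.543 and 1.19 CPM for gemcitabine and 0.144, 0.447, 0.971, 0.199 and 0 CPM for KCL-HO-1i, most of which rest on fewer than 10 reads. With the edgeR p-values used here, which are not those of the study, Ccl3 did not pass the study limits. Its log2 fold changes were 1.43 (SE 0.72, adjusted p = 0.299) and 1.41 (SE 0.72, adjusted p = 0.28) in the combinations and 0.64 (SE 0.41, adjusted p = 0.372) in the average.

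Of the others, Ccl8, which macrophages make and which in mice also acts on CCR8, was at 0 to 13.9 CPM in vehicle and 15.4 to 77.9 CPM with KCL-HO-1i, with no overlap (on the log2 scale 2.65 higher, adjusted p = 0.412). Its average log2 fold change of 1.30 became 0.74 (adjusted p = 0.538) without the 2 least luminal libraries. Ccl2, the main ligand of CCR2, was at 0.893 to 6.33 CPM in vehicle and 1.82 to 8.29 CPM with KCL-HO-1i, with an average log2 fold change of 0.62 (SE 0.37, adjusted p = 0.319). Ccl7 and Ccl12, which also act on CCR2, had averages of 0.72 (SE 0.39, adjusted p = 0.275) and 0.85 (SE 0.36, adjusted p = 0.152). That of Ccl12 was 0.29 without the 2 least luminal libraries. Ccl5, which T cells and natural killer cells make, averaged 0.32 (SE 0.34, adjusted p = 0.612) and passed the study limits only for KCL-HO-1i/Gemcitabine against vehicle (1.46), where replicate 2 held the highest of its values (6.74 CPM). The receptor Ccr2 was at 2.42 ± 1.83 CPM in vehicle and 9.27 ± 4.53 CPM with KCL-HO-1i (SD, n = 5). Its average log2 fold change was 0.82 (SE 0.44, adjusted p = 0.263).

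Cxcl14, a ligand of epithelium and stroma without an agreed classical receptor, had values of 21.3, 15.8, 2.20, 10.01 and 7.14 CPM in vehicle, 29.3, 17.3, 16.8, 27.4 and 16.0 CPM with 5-FU and 13.7, 11.6, 29.6, 7.22 and 46.1 CPM with gemcitabine. The groups with KCL-HO-1i had 29.1, 35.5, 77.3, 56.2 and 14.4 CPM alone, 35.4, 45.2, 55.2, 16.0 and 8.93 CPM with 5-FU and 30.4, 87.0, 45.3, 11 and 40.1 CPM with gemcitabine. Most tumors with KCL-HO-1i exceeded the vehicle range, but each of these groups had 1 or 2 tumors inside it. Means were 11.3 ± 7.46 CPM in vehicle and 42.5 ± 24.6, 32.1 ± 19.5 and 42.8 ± 28.0 with KCL-HO-1i (SD, n = 5). The log2 fold change was 1.91 (SE 0.59, adjusted p = 0.339) for KCL-HO-1i, 1.51 (SE 0.59, adjusted p = 0.187) for KCL-HO-1i/5-FU, 1.92 (SE 0.59, adjusted p = 0.0943) for KCL-HO-1i/Gemcitabine and 1.16 (SE 0.33, adjusted p = 0.0582) for the average. The average was 0.92 (adjusted p = 0.247) without the 2 least luminal libraries and 0.95 (adjusted p = 0.202) without the 5 rich in fat or muscle markers. When the mouse code was a covariate the average was 1.10 (adjusted p = 0.562), while the 3 differences from vehicle were 0.24, 0.45 and 0.91 in the order just given, with an adjusted p of 1 each.

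Cxcl12, the ligand of CXCR4 made by fibroblasts and endothelium, was at 29.9, 14.6, 4.66, 22.9 and 18.6 CPM in vehicle. It reached 21.0, 38.3, 136, 31.2 and 12.8 CPM with KCL-HO-1i/5-FU and 32.4, 147, 20.9, 17.3 and 44.7 CPM with KCL-HO-1i/Gemcitabine. In each of these groups 1 tumor stood far above the rest, and the other 4 reached at most 38.3 and 44.7 CPM. KCL-HO-1i gave 23.6, 34.1, 54.2, 128 and 11.8 CPM, 5-FU 29.3, 19.4, 24.7, 15.1 and 48.8 CPM and gemcitabine 63.4, 49.8, 11.9, 21.1 and 46.3 CPM. The log2 fold changes of 1.40 (SE 0.68, adjusted p = 0.281) and 1.53 (SE 0.68, adjusted p = 0.206) became 0.51 and 0.65 when replicate 3 of the former and replicate 2 of the latter were left out. The average, 0.91 (SE 0.39, adjusted p = 0.16), became 0.32 (adjusted p = 0.664) without both and 0.24 (adjusted p = 0.784) without the 5 libraries rich in fat or muscle markers. When the mouse code was a covariate the 3 values were 0.17, 0.58 and 0.51. The 2 least luminal libraries had the highest fibroblast markers, whose part in the result was not tested. The receptor Cxcr4 was at 24.1 ± 9.38 CPM in vehicle and 28.9 ± 4.58 with KCL-HO-1i (SD, n = 5), with an average of 0.09 (SE 0.18, adjusted p = 0.811).

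Cxcl5, an epithelial ligand of CXCR2 that recruits neutrophils, had the largest average difference of the 32 genes and very few reads. Vehicle tumors had 0.188, 0.145, 0, 0 and 0 CPM, 4 reads in all. Levels were 0.0836, 0.406, 0, 0.0815 and 0.667 CPM with 5-FU, 0.408, 0.2504, 0.275, 0.776 and 0.596 CPM with gemcitabine and 0.0717, 0.894, 0.896, 0 and 0 CPM with KCL-HO-1i. The KCL-HO-1i/5-FU group had 0.905, 0.445, 16.7, 0.823 and 0.313 CPM, all above vehicle, and the KCL-HO-1i/Gemcitabine group 0.222, 0.603, 10.8, 0 and 0.0895 CPM. Replicate 3 of each combination thus held most of its reads. The log2 fold change of 5.66 (SE 1.62, adjusted p = 0.119) for KCL-HO-1i/5-FU fell to 3.05 without replicate 3, and that of 4.96 (SE 1.59, adjusted p = 0.1) for KCL-HO-1i/Gemcitabine to 1.58 without its replicate 3. Cxcl5 still passed the study limits in the former of these fits but not in the latter. Against 5-FU it was 3.88 (SE 1.41, adjusted p = 0.344), and 1.28 without replicate 3. The average was 2.85 (SE 0.83, adjusted p = 0.0593) and ranged from 1.72 to 3.10 with 1 library left out, but turned to -2.40 (adjusted p = 0.54) when the mouse code was a covariate. Cxcl1, a further ligand of CXCR2, had a mean of 3.10 ± 0.483 CPM in vehicle, 3.09 ± 1.45 with 5-FU and 6.74 ± 2.96 with KCL-HO-1i/5-FU (SD, n = 5). Its log2 fold change was 1.12 (SE 0.53, adjusted p = 0.27) against vehicle and 1.12 (SE 0.53, adjusted p = 0.418) against 5-FU. Cxcr2 itself averaged 0.73 (SE 0.56, adjusted p = 0.46). Of 4 neutrophil markers tested, Cxcr2 being 1 of them, S100a9 and Csf3r passed the study limits in the average, beside 9.24% of all genes. Against vehicle 0 of the 4 passed for KCL-HO-1i (beside 6.59% of all genes) and 1, Csf3r, in each combination (7.49% with 5-FU and 10.2% with gemcitabine).

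**Figure D4:**
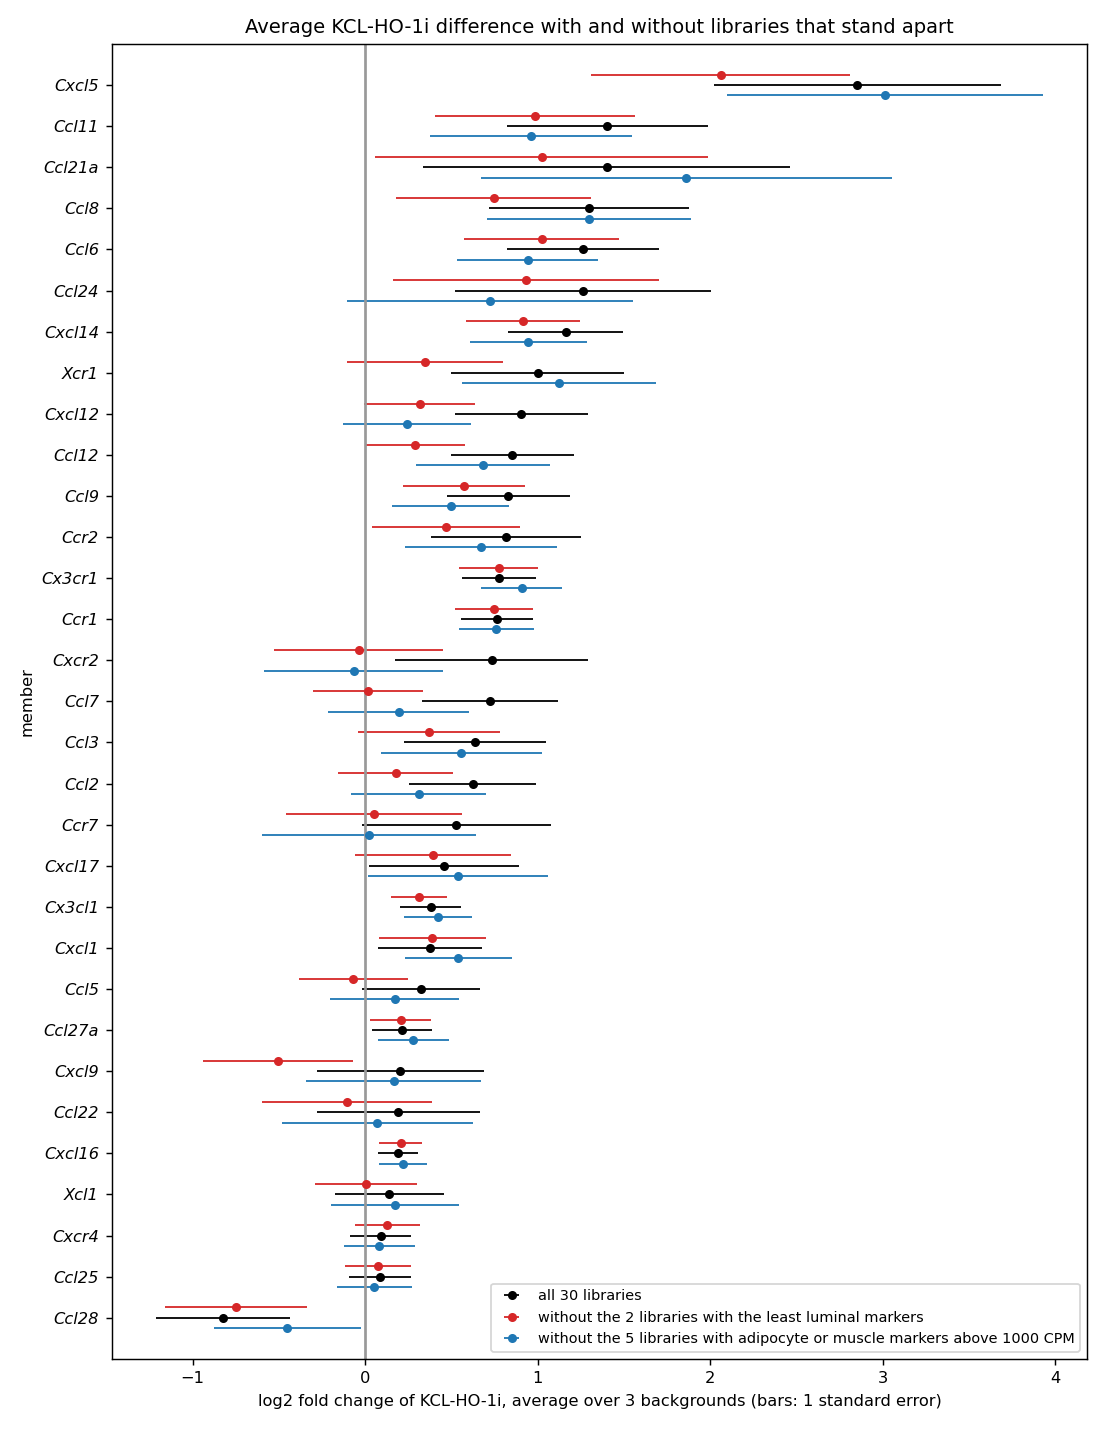
Average log2 fold change of KCL-HO-1i over its 3 backgrounds for 31 of the 32 tested genes, with bars of 1 SE, in all 30 libraries (black), without the 2 least luminal libraries (red) and without the 5 libraries rich in fat or muscle markers (blue). Ccr1 stays near 0.75 in all 3 fits, while Cxcl12 goes from 0.91 to 0.32 and 0.24.

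Ccl21a, the ligand with which lymphatic endothelium and lymphoid tissue guide cells that carry CCR7, had 0 reads in all 5 vehicle tumors. Levels were 3.51, 1.70, 3.28, 0 and 10.3 CPM with 5-FU and 0.816, 0.167, 7.42, 0 and 5.76 CPM with gemcitabine. With KCL-HO-1i they were 0.359, 0.745, 0.149, 0 and 1.32 CPM, with KCL-HO-1i/5-FU 1.13, 0.0742, 4.14, 0.0823 and 0.392 CPM and with KCL-HO-1i/Gemcitabine 3.41, 0, 0, 0 and 12.8 CPM. Each treated group thus held tumors with reads, but 6 of the 25 treated tumors had 0. Against a floor of 3 reads in each vehicle library the mean level was at least 15.1-fold higher with 5-FU and 11.4-fold with gemcitabine, and at least 2.07-, 4.69- and 13.1-fold higher in the 3 groups with KCL-HO-1i. Without the highest tumor of each group these bounds were 8.56, 6.79, 1.26, 1.69 and 3.44. The edgeR adjusted p was 0.999 for 5-FU, 0.941 for gemcitabine, 0.501 for KCL-HO-1i, and 0.179 and 0.0927 for its combinations with 5-FU and gemcitabine, all of which passed the study limits. With 0 reads in vehicle, Ccl21a could not have come out lower in these comparisons. The average, 1.40 (SE 1.06, adjusted p = 0.461), did not pass the study limits. Its receptor Ccr7, found on mature dendritic cells and naive lymphocytes, had 1.03, 0, 0.176, 0.170 and 0.0744 CPM in vehicle and 0.0816, 0.334, 3.48, 0.155 and 1.59 CPM with gemcitabine, where replicate 3 was highest. The log2 fold change was 1.96 (SE 0.99, adjusted p = 0.941), and 0.89 without that tumor. Ccr7 was at 0.920, 0.487, 0.246, 0.326 and 0.519 CPM with 5-FU, 0.359, 1.42, 1.05, 0.497 and 0.0825 CPM with KCL-HO-1i, 0.754, 0.742, 1.94, 0.823 and 0.0783 CPM with KCL-HO-1i/5-FU and 0.890, 2.41, 0.165, 0.151 and 0.537 CPM with KCL-HO-1i/Gemcitabine. These overlapped with vehicle, and the average was 0.53 (SE 0.55, adjusted p = 0.604). The lymphatic marker sum (Prox1, Flt4, Pdpn and Lyve1) was 6.92 to 17.6 CPM in vehicle and 13.5 to 20.3 CPM with 5-FU, and its highest value in the other groups was 41.4 to 64.9 CPM.

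Ccl28, a mucosal ligand of CCR3 and CCR10 made by glandular epithelium, was the only gene lower by the study limits with all libraries. It was at 4.13, 1.67, 10.6, 4.58 and 8.41 CPM in vehicle, 1.42, 5.36, 1.64, 13.8 and 3.63 CPM with 5-FU and 0.408, 1.09, 1.28, 4.81 and 4.17 CPM with gemcitabine. With KCL-HO-1i it was at 1.51, 3.95, 1.94, 1.09 and 7.01 CPM, with KCL-HO-1i/5-FU 1.51, 3.49, 1.06, 1.48 and 1.88 CPM and with KCL-HO-1i/Gemcitabine 0.742, 1.61, 1.57, 4.30 and 2.68 CPM. Only 3 of 15 tumors with KCL-HO-1i were above the mean of their background, yet the groups overlapped throughout. The log2 fold change was -1.64 (SE 0.68, adjusted p = 0.209) and -1.43 (SE 0.68, adjusted p = 0.238) for the combinations against vehicle, -1.45 (SE 0.68, adjusted p = 0.416) for KCL-HO-1i/5-FU against 5-FU, -1.32 (SE 0.67, adjusted p = 0.941) for gemcitabine and -0.83 (SE 0.39, adjusted p = 0.2) for the average. Without KCL-HO-1i/5-FU replicate 2 the value against 5-FU was -1.79, and the least, -0.68, was without 5-FU replicate 4. Its low values passed the study limits in fewer comparisons with libraries left out. Without the 2 least luminal libraries it passed in none of the 8 comparisons, and the average was -0.75 (adjusted p = 0.39). Without the 5 libraries rich in fat or muscle markers it passed after gemcitabine and in both KCL-HO-1i/5-FU comparisons but neither for KCL-HO-1i/Gemcitabine against vehicle nor in the average, which was -0.45 (adjusted p = 0.63). In both fits Ccl20, whose counts are too low for the main test, was lower in KCL-HO-1i/Gemcitabine against gemcitabine. The related Ccl27a was at 4.53 ± 1.43 CPM in vehicle and 5.95 ± 1.44 with KCL-HO-1i/Gemcitabine (SD, n = 5), with an average of 0.21 (SE 0.17, adjusted p = 0.498).

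The eotaxins Ccl11 and Ccl24 attract eosinophils through CCR3. Ccl24 was at 0.376, 0, 0, 0.0848 and 0 CPM in vehicle, 5 reads in all, and 2.84, 0.243, 0.328, 0 and 0.296 CPM with 5-FU. The 5-FU value rests on replicate 1, and its log2 fold change of 2.96 (SE 1.42, adjusted p = 0.999) was 1.24 without it. Further values were 0, 0.751, 0, 0.0776 and 1.19 CPM with gemcitabine, 0.789, 1.04, 1.57, 1.19 and 0.0825 CPM with KCL-HO-1i, 0.377, 0.593, 0.529, 0 and 0 CPM with KCL-HO-1i/5-FU and 2.30, 3.52, 0, 0.0754 and 0.984 CPM with KCL-HO-1i/Gemcitabine. All 5 KCL-HO-1i tumors had reads, while 9 of the other 25 had 0. Log2 fold changes were 3.30 (SE 1.42, adjusted p = 0.462) for KCL-HO-1i and 3.84 (SE 1.42, adjusted p = 0.132) for KCL-HO-1i/Gemcitabine. Ccl11, which fibroblasts make, had means of 1.69 ± 1.07 CPM in vehicle, 9.29 ± 7.36 with KCL-HO-1i and 11.6 ± 13.9 with KCL-HO-1i/Gemcitabine (SD, n = 5). Its average log2 fold change was 1.40 (SE 0.58, adjusted p = 0.15), and 0.99 (adjusted p = 0.415) without the 2 least luminal libraries. The receptor Ccr3 reached 10 counts in 2 libraries.

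Xcl1, which natural killer and T cells make for the cross-presenting dendritic cells that carry XCR1, was at 0.572, 0.2504, 0.641, 1.40 and 0.695 CPM with gemcitabine and 1.11, 2.62, 1.41, 1.96 and 1.07 CPM with KCL-HO-1i/Gemcitabine, and the log2 fold change was 1.18 (SE 0.55, adjusted p = 0.359). The groups overlapped, with Gemcitabine replicate 4 inside the range of the combination. It was at 1.41, 0.727, 0.880, 1.02 and 0.669 CPM in vehicle, 0.836, 1.46, 0.738, 4.64 and 1.11 CPM with 5-FU, 0.215, 1.94, 0.821, 0.398 and 0.825 CPM with KCL-HO-1i and 1.06, 1.41, 1.67, 1.23 and 0.392 CPM with KCL-HO-1i/5-FU. The average was 0.14 (SE 0.31, adjusted p = 0.834). Xcr1 was higher by the study limits in both combinations against vehicle, at 2.29 (SE 0.92, adjusted p = 0.198) with 5-FU and 1.97 (SE 0.92, adjusted p = 0.231) with gemcitabine, from 0.190 ± 0.178 CPM in vehicle to 0.958 ± 1.46 and 0.762 ± 0.467 (SD, n = 5). KCL-HO-1i/5-FU replicate 3 held the highest level, 3.52 CPM, and without both least luminal libraries Xcr1 passed in neither combination.

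The remaining ligands passed the study limits in no comparison. Cxcl16, a ligand of CXCR6 made by macrophages and epithelium, ran from 20.3 ± 4.49 CPM with gemcitabine to 28.4 ± 5.42 with KCL-HO-1i/5-FU (SD, n = 5), with an average of 0.19 (SE 0.12, adjusted p = 0.345). Ccl25, the ligand of CCR9, averaged 0.09 (SE 0.18, adjusted p = 0.824), and Ccl22, which dendritic cells make for CCR4, 0.19 (SE 0.47, adjusted p = 0.848). Cxcl9, the CXCR3 ligand of the interferon-gamma response, averaged 0.20 (SE 0.48, adjusted p = 0.843) and Cxcl17, a mucosal ligand, 0.46 (SE 0.43, adjusted p = 0.563). Of the receptors on T and B cells, Cxcr3, Cxcr5 and Cxcr6 had too few counts for the main test. In a fit of 18557 genes without a filter, the average log2 fold change was 1.24 (SE 0.50, adjusted p = 0.168) for Cxcr3, which was at 0.140 ± 0.142 CPM in vehicle and 0.958 ± 0.978 CPM with KCL-HO-1i/Gemcitabine (SD, n = 5). Cxcr3 passed the study limits there in the average, for KCL-HO-1i (1.97, adjusted p = 0.542) and for KCL-HO-1i/Gemcitabine against vehicle (2.72, adjusted p = 0.128). Its highest level, 2.62 CPM, was in KCL-HO-1i/Gemcitabine replicate 2, 1 of the 2 least luminal libraries. The average was -0.015 for Cxcr5 and 0.18 for Cxcr6.

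The genes not given tumor by tumor spanned the following ranges over all 30 libraries. For the chemoattractants of monocytes and T cells they were 0.570 to 10.3 CPM for Ccl2, 0.359 to 6.74 CPM for Ccl5, 0.407 to 9.95 CPM for Ccl7, 0 to 82.3 CPM for Ccl8 and 0.287 to 8.02 CPM for Ccl12. Those of the CXC ligands were 1.61 to 16.0 CPM for Cxcl1, 0.149 to 5.10 CPM for Cxcl9, 12.5 to 35.6 CPM for Cxcl16 and 0 to 1.85 CPM for Cxcl17. The CC ligands of other receptors ran over 0 to 34.5 CPM for Ccl11, 0 to 2.88 CPM for Ccl22, 0.744 to 2.98 CPM for Ccl25 and 2.47 to 8.28 CPM for Ccl27a. The receptors Ccr2 and Xcr1 ran over 0.176 to 21.7 CPM and 0 to 3.52 CPM. The CXC receptors had 0 to 3.88 CPM for Cxcr2, 0 to 2.62 CPM for Cxcr3, 9.32 to 39.7 CPM for Cxcr4, 0 to 1.37 CPM for Cxcr5 and 0 to 2.38 CPM for Cxcr6. Of these genes, Cxcl16 and Ccl27a had the smallest ratios of highest to lowest level, and Ccl8, Ccl11, Ccl22, Cxcl17, Xcr1, Cxcr2, Cxcr3, Cxcr5 and Cxcr6 were at 0 in at least 1 library.

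Whether receptor and ligand varied together among tumors was examined for 11 pairs, using log2 levels with the mean of each group removed (n = 30), and p-values from 100000 permutations within groups, two-sided and adjusted over the 11. Ccr1 varied with Ccl6 (Pearson r = 0.718, p = 2e-04, adjusted p = 0.00154; Spearman rho = 0.636, p = 0.00048, adjusted p = 0.00401) and with Ccl9 (r = 0.717, p = 0.00028, adjusted p = 0.00154; rho = 0.624, p = 0.00073, adjusted p = 0.00401). Without the 2 tumors farthest in Ccr1 these r were 0.575 and 0.557. Ccr2 varied with Ccl12 (permutation p = 0.00405, r = 0.486, adjusted p = 0.0148; rho = 0.494, p = 0.00813, adjusted p = 0.0257), with r of 0.529 without the 2 farthest tumors and 0.387 without the 2 least luminal ones. Cx3cr1 varied with Cx3cl1 (r = 0.552, permutation p = 0.0112, adjusted p = 0.0308; rho = 0.446, p = 0.0304, adjusted p = 0.0669), and Ccr2 with Ccl2 had the reverse, an adjusted p of 0.0541 for r = 0.455 (p = 0.0246) and of 0.0257 for rho = 0.513 (p = 0.00934). The 6 pairs left did not pass, with r from 0.001 for Cxcr6 and Cxcl16 to 0.355 for Xcr1 and Xcl1. All genes of a pair come from the same tissue pieces and so share their cell content, whose part in these relations was not tested. Of 13 mouse codes in the labels 1 held 6 or more tumors, all with 5-FU or gemcitabine alone, and among its 7 tumors r was 0.62 for Ccr1 with Ccl6, 0.76 for Ccr1 with Ccl9, 0.501 for Ccr2 with Ccl12 and 0.032 for Cx3cr1 with Cx3cl1.

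**Figure D5:**
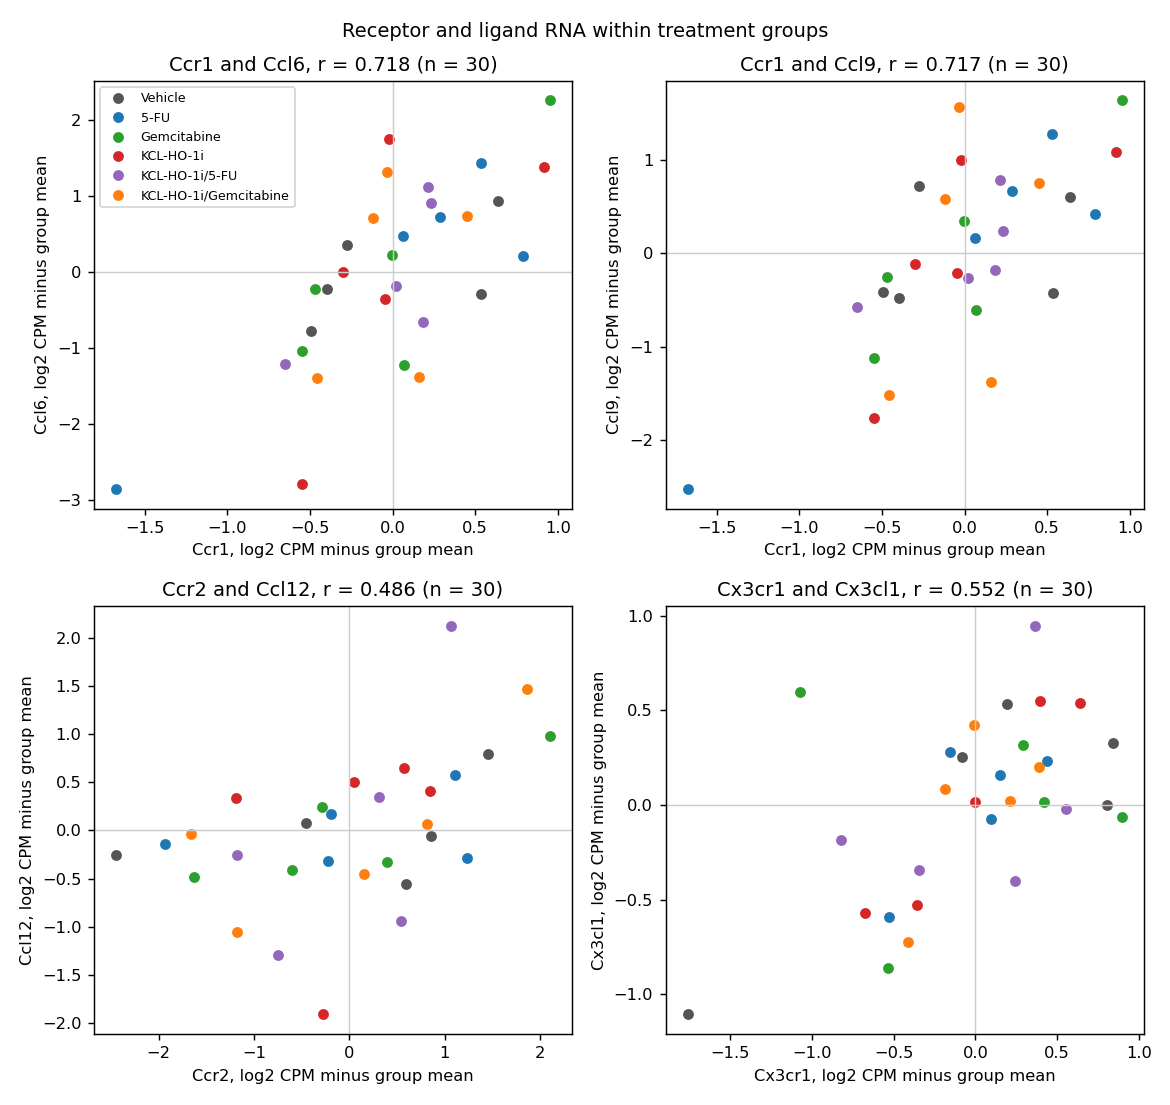
Log2 levels of a receptor (horizontal) and its ligand (vertical) in the 30 tumors after removal of the group mean, 1 panel for each of 4 pairs, with colors for the groups. Ccr1 rises with Ccl6 and Ccl9 (r = 0.718 and 0.717), with 5-FU replicate 4 lowest in both.

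The labels also give each mouse a code with a number shared by 1 to 7 of the tumors, whose meaning is not stated. Only 3 numbers hold tumors both with and without KCL-HO-1i. Ccr1 was at 1.79 (5-FU replicate 4) and 9.35 CPM (KCL-HO-1i replicate 4) under the first, at 6.37 (5-FU replicate 5) and 13.4 and 11.5 CPM (KCL-HO-1i/5-FU replicates 2 and 4) under the second, and at 4.60 (vehicle replicate 1) and 15.8 CPM (KCL-HO-1i/Gemcitabine replicate 5) under the third. The tumors with KCL-HO-1i were higher in all 3. Cx3cr1 was at 29.2 and 25.1 CPM, at 45.1 and 85.1 and 68.5 CPM, and at 24.0 and 66.4 CPM in the same tumors, higher in 2 of 3. Cxcl14 was at 27.4 and 56.2 CPM, at 16.0 and 45.2 and 16.0 CPM, and at 21.3 and 40.1 CPM. Vehicle is tied to other groups by a single number, and no number holds both gemcitabine and KCL-HO-1i/Gemcitabine tumors. The number with the most tumors, 7, holds only tumors with 5-FU or gemcitabine alone. The number shared by the 2 least luminal libraries holds only tumors with KCL-HO-1i. Mouse code and treatment therefore cannot otherwise be told apart in the comparisons with vehicle or in that with gemcitabine. The average is affected likewise.

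Other genes of the chemokine system that the name pattern leaves out were read by the same limits. Pf4, the platelet and macrophage chemokine CXCL4, was higher in KCL-HO-1i, in both combinations and in the average, at 1.47 ± 0.483 CPM in vehicle and 11.8 ± 9.41, 5.99 ± 7.37 and 11.1 ± 12.2 CPM in the groups with KCL-HO-1i (SD, n = 5). Its average log2 fold change was 2.07 (SE 0.46, adjusted p = 0.0525), and 1.37 (adjusted p = 0.209) without the 2 least luminal libraries and 1.47 (adjusted p = 0.167) without the 5 rich in fat or muscle markers. Without the former it did not pass for KCL-HO-1i/5-FU, at 0.87. Of 5 atypical receptors, which take up chemokines without signaling through G proteins, 3 were higher in the average, where 9.24% of all genes were, namely Ackr1 of venules at 1.93 (SE 0.62, adjusted p = 0.0775), Ackr3, which binds CXCL12, at 0.91 (SE 0.32, adjusted p = 0.0972), and Ackr4, which removes CCL21, at 1.03 (SE 0.47, adjusted p = 0.187). Without the 2 least luminal libraries only Ackr1 passed, at 1.35, with Ackr3 at 0.46 and Ackr4 at 0.50, beside 3.85% of all genes. Without the 5 rich in fat or muscle markers none of the 5 passed, beside 4.97%. Of 25 genes that signal behind the receptors, 1 was higher after 5-FU (Rgs2, beside 1.19% of all genes), 0 after gemcitabine (0.71%), 2, 7 and 7 in KCL-HO-1i and its combinations with 5-FU and gemcitabine (6.59%, 7.49% and 10.2%), and 4 in the average (9.24%). The 4 were the leukocyte genes Rac2, at 0.80 (SE 0.24, adjusted p = 0.0652), and Dock2, at 0.73 (SE 0.25, adjusted p = 0.0952), with Gng2 and Plcb2, and none of the 25 was lower in these comparisons. In the average 0 were higher without the 2 least luminal libraries, beside 3.85% of all genes, and 4 without the 5 rich in fat or muscle markers, beside 4.97%. Dpp4, a protease that trims chemokines, averaged 0.11 (SE 0.29, adjusted p = 0.864).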

How the data were processed

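RNA was prepared by the authors from whole tumors with a strand-specific kit, and per the labels reads were handled with FastQC 0.11.9, STAR 2.7.9a, Salmon 1.9.0 and DESeq2 against mm10. The deposited table holds expected counts per gene, which the study's methods call TPM counts: 37.99% of values were not whole, and they were rounded. Genes were kept by filterByExpr (minimum count 10, by group), which left out 8178 genes with 0.05649% of all counts. The main test was the quasi-likelihood test of edgeR 4.0.16 (R 4.3.3) with TMM factors on all 30 libraries, two-sided, with Benjamini-Hochberg adjustment over all 13663 genes and a threshold of 0.05. The SE is the log2 fold change divided by the square root of F. DESeq2 1.42.0 and limma 3.58.1 served as alternatives, with another scaling, other filters, covariates and libraries left out. Figures were drawn with matplotlib 3.10.9, and scripts were tested on simulated data.

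Members, lists and tests were chosen with earlier results of these data known. Genes given in every library are the 5 that the study shows for both combinations, which are therefore no independent evidence, and the 3 reported genes with the smallest p in each comparison other than the interactions. The labels give 1 tumor for each mouse, so p-values measure the spread between tumors. Same-numbered replicates did not deviate together (mean correlation 0.002837 over 75 pairs, from -0.5835 to 0.4797), so the numbers were not used as pairs. No libraries were duplicates, with a chi-square of at least 20.7 per degree of freedom over 60 pairs within groups. Of the genes tested or used as markers, some are not reported here by name.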

Additional observations from a re-analysis of the deposited data

Results flagged for a closer look

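Of 210 sets of 5 tumors (35 genes in 6 groups), 15 had 1 tumor whose distance from the next was over 0.71 of the whole range on the log2 scale, a limit that chance passes in about 1 of 20 sets. KCL-HO-1i/5-FU replicate 3 was the highest for Ccl7 (9.95 CPM, others 0.980 to 1.49), Cx3cl1 (264 CPM, others 104 to 135), Cxcl5 (16.7 CPM, others 0.313 to 0.905) and Cxcr6 (2.38 CPM, others 0.329 to 0.603). This is 1 of the 2 least luminal libraries. In the same group replicate 1 was lowest for Ccr1 (7.16 CPM, others 11.5 to 13.4) and replicate 5 for Ccl11 (0 CPM, others 1.89 to 5.55).

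With 5-FU, replicate 4 was lowest for Ccl6 (1.55 CPM, others 14.3 to 33.6) and Cxcl16 (12.5 CPM, others 26.9 to 31.1). Replicate 1 was highest for Ccl22 (2.59 CPM, others 0.407 to 0.593) and replicate 3 for Cxcl17 (1.56 CPM, others 0.296 to 0.489). With KCL-HO-1i, replicate 1 was lowest for Ccl12 (0.287 CPM, others 1.98 to 2.49), replicate 4 for Cxcr5 (0 CPM, others 0.298 to 0.523), and replicate 2 was highest for Cxcl9 (2.68 CPM, others 0.298 to 0.430). Cxcr2 was lowest in Gemcitabine replicate 4 (0.0776 CPM, others 0.584 to 0.824), and Cxcl16 was highest in KCL-HO-1i/Gemcitabine replicate 4 (29.2 CPM, others 25.4 to 26.3).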

How the results depend on the processing

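Another scaling (RLE) moved no count by over 1.5 times and called 0 genes. With DESeq2 1, 3, 4, 5 and 2 genes passed the adjusted threshold for KCL-HO-1i alone, its combinations with 5-FU and gemcitabine, the average and any difference, and 2 were higher by the study limits for gemcitabine. With limma-voom 3 passed for KCL-HO-1i/Gemcitabine and 1 for the average, and 7, 3, 6 and 4 were higher by the study limits for 5-FU and gemcitabine alone, KCL-HO-1i/5-FU and the average. Without a filter 6 and 4 were higher for 5-FU and gemcitabine and 5 for the KCL-HO-1i/5-FU against 5-FU comparison. With a mean of at least 50 counts, or with only the groups compared in the fit, 1, 0, 6 and 9 were higher for 5-FU, gemcitabine and the combinations with KCL-HO-1i in that order, the former with fewer genes and the latter with fewer samples. Without the 2 least luminal libraries the counts were 5, 3, 5, 6 and 5 for 5-FU, gemcitabine, both combinations and the average, and 0 in KCL-HO-1i/5-FU against 5-FU. Without the 5 libraries rich in fat or muscle markers they were 1, 6 and 6 for KCL-HO-1i, KCL-HO-1i/Gemcitabine and the average. Apart from these last 2 alternatives, all were planned. Unless a share of all genes is given above for the same fit, the counts in this section stand without one. They show how far a count moves with the processing, not whether it exceeds that share.

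With the replicate number as a block, which the data do not pair, 2, 9, 6 and 1 were higher for gemcitabine, KCL-HO-1i/Gemcitabine, the average and KCL-HO-1i/5-FU against 5-FU, and the adjusted test still called 0. With the mouse code as a covariate, which ties vehicle to the rest through 1 tumor, 1, 1, 1 and 2 were higher for 5-FU, KCL-HO-1i and its combinations with 5-FU and gemcitabine, 6 for the average and 6 for KCL-HO-1i/Gemcitabine against gemcitabine. Log2 fold changes turned to -1.49 for Ccl24 after 5-FU, to -0.61 for Ccr7 and 0.59 for Ccl28 after gemcitabine, and to -0.99 for Cxcl5 with KCL-HO-1i/Gemcitabine. Cxcl5 turned to -2.40 in the average and -0.003 for KCL-HO-1i/5-FU against 5-FU, and Ccl21a to -1.30 in the average. Of those that kept their sign, other than Ccl21a, values moved by over 1.5 times in the average for Ccr1 (1.85, from 0.76) and Cxcl12 (0.51), and likewise for Ccr1 (2.39) and Xcl1 (0.36) with KCL-HO-1i/Gemcitabine against gemcitabine, for Ccl28 (-2.37) with KCL-HO-1i/5-FU against 5-FU, and against vehicle for Cxcl14 (0.24, 0.45 and 0.91 in the 3 groups with KCL-HO-1i), Cxcl12 (0.17 and 0.58 in the combinations), Ccl3 (4.08 and 3.26), Cx3cr1 (1.43 for 5-FU and 1.99 for KCL-HO-1i/5-FU) and Cxcl5 (1.25 for KCL-HO-1i/5-FU). The cause was not tested.

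With 1 library left out at a time, which also changes the genes tested, the number higher ranged from 1 to 4 for 5-FU, 1 to 6 for gemcitabine, 5 to 14 for KCL-HO-1i, 3 to 12 for KCL-HO-1i/5-FU, 6 to 17 for KCL-HO-1i/Gemcitabine and 5 to 14 for the average. Against the matching chemotherapy it ranged from 0 to 4 with 5-FU and 1 to 9 with gemcitabine. The adjusted test called 0 to 6 for the average, the 6 in a fit in which 1130 genes in all passed. It called 0 to 1 for any difference (1 without KCL-HO-1i/Gemcitabine replicate 3), and 0 in the others. Depth limits Cxcl5, Ccl24, Ccl3, Ccr7 and Ccl21a, which had a few reads or none in most vehicle tumors.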

Other observations

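Gemcitabine replicate 3 held the highest levels of several genes of lymphoid tissue. Ccl19 and Cxcl13, the ligands that place T and B cells in lymph nodes, reached 56 and 27 counts there, their highest in the series, and Ccr7 and Cxcr5 were highest there too, at 3.48 and 1.37 CPM. These genes were singled out after their values were seen.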
